A study of Drosophila melanogaster with 3 samples.

Results

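Summits of Su(H)-GFP binding were described at tRNA genes, the short genes that encode the adaptors of translation. The members were all 312 genes of the Ensembl dm6 biotype tRNA, each extended by 500 bp to both sides, out of 18358 annotated genes other than transposable elements. No list held a peak on the mitochondrial genome, so the 22 mitochondrial tRNA genes were not assessed, and 290 nuclear tRNA genes remained. They lay on 2L (41 genes), 2R (98), 3L (48), 3R (79) and X (24). Extended regions that overlapped were joined into 174 loci, of which 105 held 1 gene and 69 held 2 or more (185 genes in all, at most 7 in a locus). Chromatin came from whole embryos collected over 0 to 24 h, males and females pooled, of a transgenic Drosophila melanogaster line that stably carries Su(H) with GFP at its C terminus, and all 3 biological replicates belonged to this single group. The labels describe immunoprecipitation with an antibody to GFP, although 1 label field names Su(H), and shearing by sonication to fragments of 200 to 800 bp. The control library and the cell types that carry the fusion were not analysed here. Each replicate list and the pooled list held 30000 peaks, and the thresholded list, which kept peaks that ranked reproducibly, held 3833.

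Su(H) is the DNA-binding factor of the Notch pathway: it recruits co-repressors to its targets and, after Notch cleavage, joins the intracellular part of the receptor to activate them. tRNA genes are transcribed by RNA polymerase III from a promoter inside the gene. TFIIIC binds its A box and B box and places TFIIIB, which holds Brf and Bdp1, just upstream, and transcription ends in a run of T. Animal genomes carry many identical tRNA genes, often in clusters and often inside introns of other genes.

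The tRNA genes nearest 3 of the 10 strongest summits outside the reach of any coding start are shown first. They come first because no annotated coding promoter adjoins the Su(H)-GFP signal there. At tRNA:Asp-GTC-1-11, however, the summit lay closer to a U6 gene than to the tRNA gene. Shown with them is tRNA:Tyr-GTA-1-8, which lies next to the strongest summit of all. Capitals mark an exact match to the B box core GTTCGANTC or to an A box core (TGGCNNAGT or TAGCNNAGT), searched on the sense strand of the gene. The genes are tRNA:Gln-TTG-2-1 (FBgn0052493, dm6 chrX:3427452-3427523, minus strand, in an intron of CG12535), tRNA:Ser-AGA-2-4 (FBgn0011984, chr2L:3173003-3173084, minus strand, between genes), tRNA:Asp-GTC-1-11 (FBgn0011845, chr3R:24555302-24555373, plus strand, in an intron of Esyt2) and tRNA:Tyr-GTA-1-8 (FBgn0012024, chr3R:8669081-8669174, minus strand, in an intron of CG8036 and p). Each is written 5′ to 3′ on its own strand.
tRNA:Gln-TTG-2-1: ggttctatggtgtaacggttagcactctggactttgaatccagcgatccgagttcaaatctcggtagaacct
tRNA:Ser-AGA-2-4: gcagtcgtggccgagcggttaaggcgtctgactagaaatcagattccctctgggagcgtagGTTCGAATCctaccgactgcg
tRNA:Asp-GTC-1-11: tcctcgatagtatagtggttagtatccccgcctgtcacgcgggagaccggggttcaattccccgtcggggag
tRNA:Tyr-GTA-1-8: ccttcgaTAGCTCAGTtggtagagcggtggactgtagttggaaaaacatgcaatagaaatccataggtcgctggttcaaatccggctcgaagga

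For the first and second of these genes the DNA from the gene to the pooled summit fits in a short stretch, which shows where the summit lay relative to the gene. Each stretch runs 5′ to 3′ on the strand of the gene and starts 10 bp beyond the pooled summit, with the tRNA gene in capitals and the upstream DNA in lower case (chrX:3427452-3427734 and chr2L:3173003-3173180).
tRNA:Gln-TTG-2-1 with its upstream flank: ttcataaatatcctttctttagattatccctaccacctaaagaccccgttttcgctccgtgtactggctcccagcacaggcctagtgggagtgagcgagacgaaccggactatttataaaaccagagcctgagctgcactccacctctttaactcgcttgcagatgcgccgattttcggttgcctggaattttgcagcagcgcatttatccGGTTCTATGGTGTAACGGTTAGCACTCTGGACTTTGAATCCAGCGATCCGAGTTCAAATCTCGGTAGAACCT
tRNA:Ser-AGA-2-4 with its upstream flank: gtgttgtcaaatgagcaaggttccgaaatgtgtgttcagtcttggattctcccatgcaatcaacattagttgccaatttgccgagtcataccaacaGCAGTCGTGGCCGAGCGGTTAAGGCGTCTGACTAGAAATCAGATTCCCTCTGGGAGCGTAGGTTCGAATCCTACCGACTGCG
The pooled summits lay 201 bp upstream of tRNA:Gln-TTG-2-1 and 86 bp upstream of tRNA:Ser-AGA-2-4, outside both genes. At tRNA:Gln-TTG-2-1 the highest summits of replicates 1 to 3 lay 233, 200 and 273 bp upstream. At tRNA:Ser-AGA-2-4 replicates 1 and 2 had theirs 214 and 98 bp upstream, whereas that of replicate 3 lay inside the gene.

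The replicates differed at tRNA genes. A summit lay in the region of 56 of the 290 tRNA genes in replicate 1 (19.3%, Wilson 95% interval 15.2 to 24.2%), of 150 in replicate 2 (51.7%, 46.0 to 57.4%) and of 127 in replicate 3 (43.8%, 38.2 to 49.5%). Among 124386 windows of 1073 bp that tile the rest of the genome, the share with a summit was 21.1%, 20.2% and 20.4% in replicates 1 to 3. tRNA gene regions therefore held a summit 0.914 times as often as the windows in replicate 1, 2.56 times as often in replicate 2 and 2.14 times as often in replicate 3. The replicates were close to one another at the starts of 13945 protein-coding genes, in windows of the same length, with 49.2%, 51.6% and 52.7% in replicates 1 to 3, and at 269 snoRNA genes extended in the same way, with 33.5%, 30.5% and 34.2%. At 32 snRNA genes the shares were 25.0%, 56.2% and 40.6%, so replicate 1 was the lowest there too. Intervals cover counting error only, neighbouring regions share summits, and read depth is unknown from the lists. The cause of the difference was not tested.

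The pooled and thresholded lists combine the replicates. A pooled summit lay in 116 tRNA gene regions (40.0%), against 20.4% of the windows, 52.9% of the coding starts and 31.2% of the snoRNA regions. A thresholded summit lay in 16 tRNA gene regions (5.52%, interval 3.42 to 8.77%), against 2.92% of the windows, 17.7% of the coding starts and 6.69% of the snoRNA regions. At the 32 snRNA gene regions both shares were higher than at tRNA genes, 46.9% pooled and 15.6% thresholded (interval 6.86 to 31.8%). The pooled list contains the reads of all 3 replicates, and every thresholded peak is also a pooled peak, so these shares are not independent of the replicate shares. No summit of any list lay in the region of 105 tRNA genes.

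**Figure D1:**
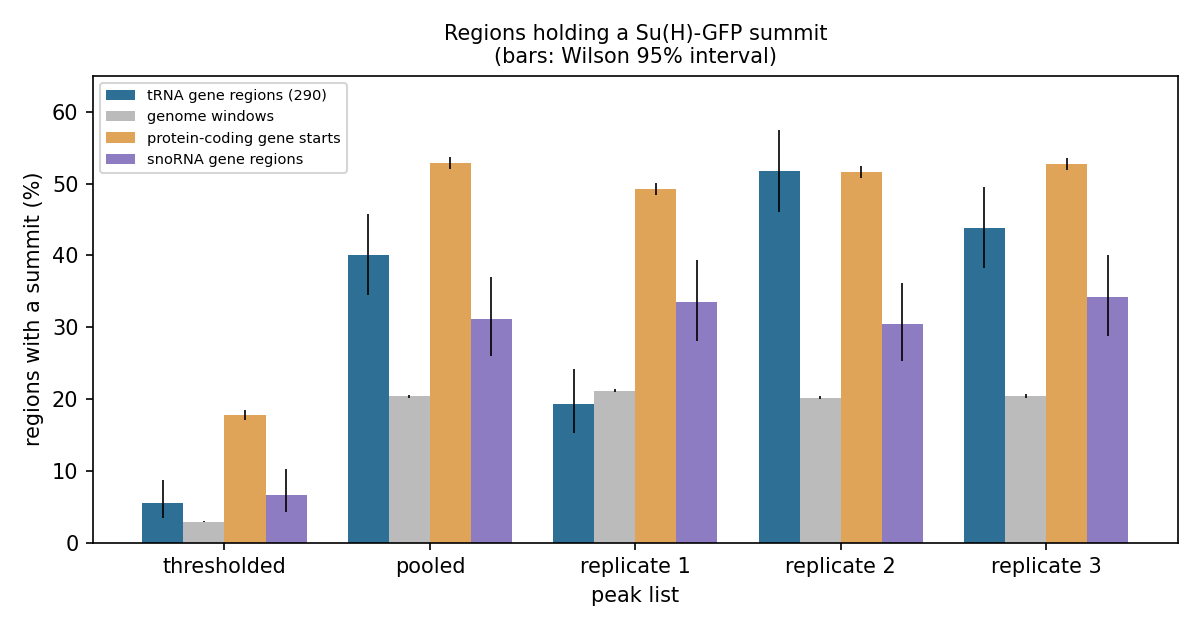
Share of regions that hold a summit (y axis, %) in each of the 5 peak lists (x axis), for 290 tRNA gene regions, genome windows, protein-coding gene starts and snoRNA gene regions; lines are Wilson 95% intervals. The tRNA bar stands at 19.3% in replicate 1 and at 51.7% and 43.8% in replicates 2 and 3. The other classes drawn stay nearly level across the replicates. The 32 snRNA gene regions, which are not drawn, had 25.0%, 56.2% and 40.6% in replicates 1 to 3.

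Su(H)-GFP summits over 500 bp from coding starts made up 81 of the 104 pooled summits in tRNA gene regions and 4 of the 14 thresholded ones. Over all peaks they also made up most of the pooled list, 21052 of 30000, and a smaller part of the thresholded list, 1666 of 3833. After summits within 500 bp of a protein-coding start were set aside, 38 tRNA gene regions had a summit in replicate 1 (13.1%), against 16.1% of the windows. In replicate 2 they were 128 (44.1%), against 14.9%, and in replicate 3 they were 110 (37.9%), against 15.0%. The pooled list gave 96 (33.1%), against 15.0% of the windows. In the thresholded list 4 tRNA gene regions were left (1.38%, interval 0.538 to 3.49%), against 1.29% of the windows, a share near that of the genome.

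Which replicates listed the same tRNA gene was tabulated for all 8 combinations. All 3 replicates had a summit at 38 tRNA genes (13.1%), against 8.04% of the windows. Replicates 2 and 3 without replicate 1 had one at 61 genes (21.0%), against 3.50% of the windows, a ratio of 6.02. Counted by joined locus, 26 of the 174 loci had a summit in replicates 2 and 3 and none in replicate 1. Of the 61 genes, 47 were among the 154 in loci of 2 to 4 genes, and 8 among the 31 in larger loci. The other 6 were among the 105 genes alone in their locus. There 21.0%, 36.2% and 31.4% had a summit in replicates 1 to 3. Neighbouring genes share summits, so the ratio of 6.02 counts some summits more than once. Among the 32 snRNA gene regions, 18.8% had a summit in replicates 2 and 3 without replicate 1. The other pairs were rarer: replicates 1 and 2 without 3 at 3.10% of the tRNA genes, against 2.73%, and replicates 1 and 3 without 2 at 1.38%, against 3.10%. Replicate 1 alone listed 1.72% of the tRNA genes, against 7.26% of the windows, replicate 2 alone 14.5%, against 5.92%, and replicate 3 alone 8.28%, against 5.80%. None of the replicates had a summit at 107 tRNA genes (36.9%), against 63.7% of the windows.

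**Figure D2:**
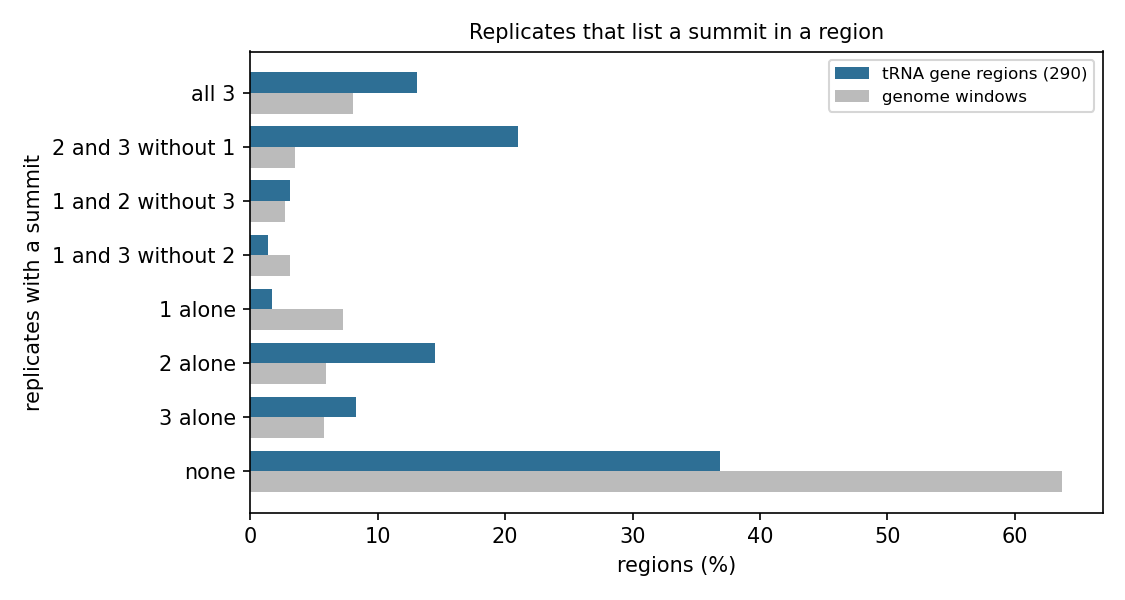
Share of regions (x axis, %) by the combination of replicates that listed a summit there (y axis), for 290 tRNA gene regions and for genome windows. The widest gap among combinations with a summit is at replicates 2 and 3 without 1, with 21.0% of the tRNA gene regions and 3.50% of the windows.

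The difference between replicates was sharpest at the tRNA genes themselves. Outside the reach of coding starts, replicate 1 had 3 summits inside tRNA genes and 2 within 1 to 100 bp of one, or 0.153 and 0.0401 summits per kb, where its genome-wide density was 0.185 per kb. Replicate 2 had 17 summits inside tRNA genes and 36 within 1 to 100 bp, or 0.865 and 0.721 per kb, against 0.178 per kb over the genome. Replicate 3 had 17 inside and 21 within 1 to 100 bp, or 0.865 and 0.421 per kb, against 0.177 per kb over the genome. In the pooled list 18 summits lay inside tRNA genes, or 0.916 per kb, 5.15 times the genome-wide density. The curves drew together with distance: at 1001 to 2000 bp from the nearest tRNA gene the densities ran from 0.219 per kb in replicate 1 to 0.262 per kb in replicate 3. No thresholded summit lay inside a tRNA gene, and 1, at tRNA:Ser-AGA-2-4, lay within 100 bp of one. Over the genome this list had 0.0286 summits per kb, and tRNA genes covered 22 kb. At that density few would fall there, so these counts do not show that thresholded summits avoid tRNA genes.

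**Figure D3:**
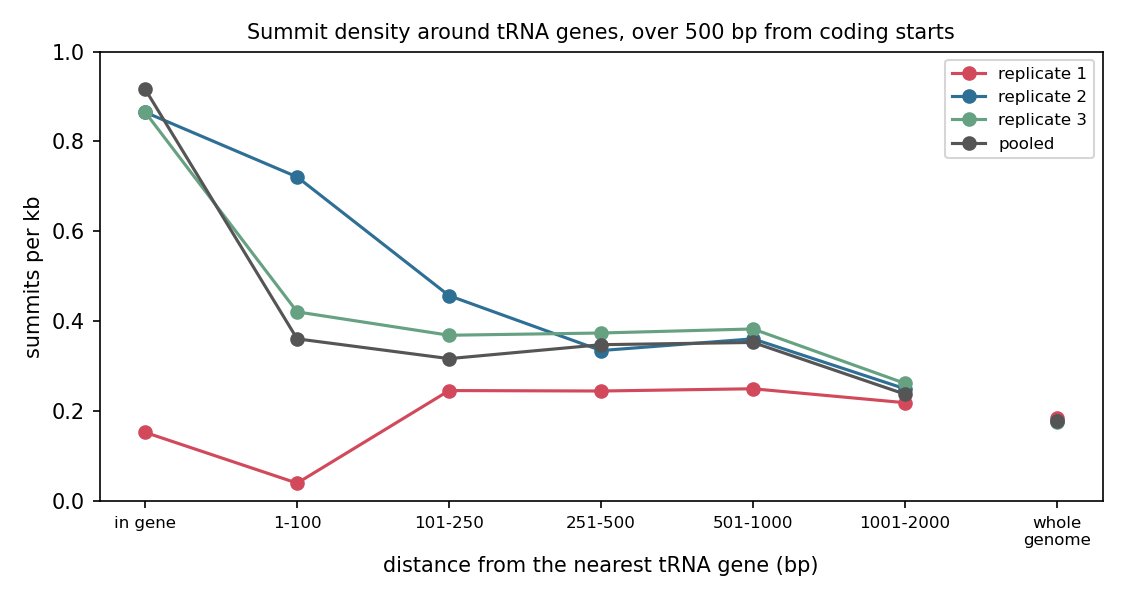
Summits per kb (y axis) in bands of distance from the nearest tRNA gene (x axis, bp) and over the whole genome (right), for the 3 replicates and the pooled list, leaving out positions and summits within 500 bp of a protein-coding start. Replicates 2 and 3 reach 0.865 per kb inside tRNA genes and replicate 1 stays at 0.153 per kb, while all lie between 0.219 and 0.262 per kb at 1001 to 2000 bp.

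Matching summit by summit gave the same order of replicates. The pooled list contains the reads of all 3 replicates, so this order is not independent of the counts above. Of the 81 pooled summits in tRNA gene regions that lay away from coding starts, replicate 1 matched 29 (35.8%) to a summit of its own no more than 200 bp away, replicate 2 matched 65 (80.2%) and replicate 3 matched 59 (72.8%). Of the other 20971 pooled summits away from coding starts, replicate 1 matched 62.8%, replicate 2 matched 58.3% and replicate 3 matched 60.8%. Of the 36 pooled summits within 100 bp of a tRNA gene or inside it, replicate 1 matched 7 (19.4%), replicate 2 matched 29 (80.6%) and replicate 3 matched 26 (72.2%). Replicate 1 therefore lacked many summits that replicates 2 and 3 shared beside tRNA genes, while elsewhere it matched pooled summits slightly more often than the others did. The side of the gene differed between lists. It was counted at 90 genes with no other tRNA gene within 2000 bp, with summits near coding starts included. Replicate 2 had 26 summits up to 400 bp upstream of the 5′ end of the gene. It had 11 up to 400 bp downstream of that end, a stretch that includes the gene. Replicate 1 had 9 and 9, and replicate 3 had 13 and 13. Away from coding starts the counts were 5 and 6, 23 and 9, and 9 and 11 in replicates 1 to 3.

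Of the 174 loci, 36 had a summit in each replicate. Mean signal over the replicates ranged from 13.9 to 227 across them, in the authors' units, with a median of 26.1 and a median SD of 6.08 (n = 3). Each value was the highest summit of the locus in that replicate, so the values of a locus can come from separate summits. At the locus with the lowest mean, that of tRNA:Ala-AGC-2-5 and tRNA:Pro-TGG-1-3, they lay at 17630939, 17632150 and 17631455 on 3R in replicates 1 to 3. By rank within its own list, replicate 1 came last of the 3 in 15 of these loci and first in 9, replicate 2 last in 12 and first in 14, and replicate 3 last in 9 and first in 13. These loci were picked for a summit in replicate 1 as in the others, so they say nothing of the loci that replicate 1 lacks. No source used here says whether signal was scaled for depth, so an SD over replicates includes any difference in scale between the lists. Where a replicate is called lowest below, it was also last by rank within its list.

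The strongest Su(H)-GFP summits near tRNA genes lay at promoters of coding genes. Of the 14 thresholded summits in tRNA gene regions, 10 lay within 500 bp of a protein-coding start. Over all 3833 thresholded peaks the share within that distance was 56.5%. The strongest was beside the cluster of tRNA:Tyr-GTA-1-6, tRNA:Tyr-GTA-1-7 and tRNA:Tyr-GTA-1-8 on 3R, tyrosine tRNA genes whose sequence is shown above for the last of them. Its pooled signal was 696, rank 93 of 30000, and the replicates gave 208, 268 and 207 (227 ± 35.3, SD, n = 3). The summit lay 206 bp upstream of tRNA:Tyr-GTA-1-8 and 238 bp from a start of CG8036. All 3 replicates placed this peak among their 130 strongest.

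The next loci by pooled signal were tied to coding starts as well. At tRNA:Phe-GAA-1-2 on X, a phenylalanine tRNA gene, the pooled signal was 311 and the replicates gave 99.4, 79.0 and 142, with the summit 41 bp from a start of RpL17, which encodes a protein of the large ribosomal subunit. At tRNA:Val-CAC-2-5 on 3R, in an intron of Naam, a nicotinamidase gene, the pooled signal was 268 and the replicates gave 58.9, 94.1 and 105, with the summit 427 bp from a start of Naam. Replicate 1 was the lowest at tRNA:Val-CAC-2-5 but not at tRNA:Phe-GAA-1-2. At tRNA:Trp-CCA-2-2 and tRNA:Gly-GCC-1-9 on 2R the pooled signal was 265 and the replicates gave 77.4, 73.5 and 103, with the summit on a start of CG30122. At the 3 histidine tRNA genes tRNA:His-GTG-1-1 to tRNA:His-GTG-1-3 on 2R the pooled signal was 250 and the replicates gave 79.2, 91.3 and 62.1, with the summit 76 bp from a start of CG8490. The remaining 5 of the 10 strongest loci with a coding start had pooled signals of 106 to 133. They included the 7-gene cluster that starts with tRNA:Ile-AAT-1-3, in an intron of ATP8A, a gene for a phospholipid-flipping ATPase, with 49.6, 45.6 and 30.8 in replicates 1 to 3. They also included tRNA:Asp-GTC-1-5, with a summit 70 bp from a start of Sema1a, a gene for an axon guidance protein, where replicate 1 listed none. There replicate 3 gave 40.6 at 2 bp from the pooled summit, whereas the highest summit of replicate 2, of 64.2, lay 290 bp from it, inside tRNA:Asp-GTC-1-5.

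Signal was lower where no coding start lay near. The strongest such locus was the glutamate tRNA cluster of tRNA:Glu-TTC-1-5, tRNA:Glu-TTC-1-6, tRNA:Glu-CTC-2-1 and tRNA:Glu-CTC-2-2 on 2R, between genes. Its pooled signal was 205, rank 1254, and the replicates gave 35.9, 83.2 and 65.7 (61.6 ± 23.9, SD, n = 3), with the nearest coding start 13114 bp from the summit. At the alanine tRNA genes tRNA:Ala-TGC-1-1 and tRNA:Ala-TGC-2-1 on 2R the pooled signal was 153, replicate 1 listed no summit and replicates 2 and 3 gave 69.1 and 64.3. At tRNA:Gln-TTG-2-1, a glutamine tRNA gene with no identical copy, the pooled signal was 149 and the replicates gave 39.4, 61.0 and 56.5 (52.3 ± 11.4). At tRNA:Ser-AGA-2-4, a serine tRNA gene, the pooled signal was 113 and the replicates gave 26.0, 50.2 and 47.5 (41.2 ± 13.3). Replicate 1 was the lowest or listed no summit at each of these 4 loci, which are the only ones with a thresholded summit away from coding starts.

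None of the next 6 loci reached the thresholded list. At the initiator methionine genes tRNA:iMet-CAT-1-4 and tRNA:iMet-CAT-1-5 on 3L, in an intron of ome, the pooled signal was 105 and the replicates gave 30.6, 35.6 and 28.7 (31.7 ± 3.57). At tRNA:Ile-AAT-1-2 the pooled signal was 72.9 and the replicates gave 23.1, 20.7 and 25.2 (23.0 ± 2.28). Their ranks ran from 4244 to 6269 at the initiator genes and from 7900 to 11008 at tRNA:Ile-AAT-1-2. At tRNA:Phe-GAA-1-3, in an intron of Sema1a, the replicates gave 35.3, 23.0 and 31.5, and at tRNA:Leu-CAG-1-1 they gave 21.7, 17.4 and 36.7. In both, replicate 2 was the lowest. Replicate 1 listed no summit at tRNA:Lys-CTT-1-5 and tRNA:Arg-ACG-1-4, where the pooled summit lay inside tRNA:Arg-ACG-1-4 and replicates 2 and 3 gave 41.0 and 23.6. At tRNA:Asp-GTC-1-11 only replicate 3 listed a summit, of 29.9. The pooled summit, 424 bp from the gene, lay closer to the U6 gene snRNA:U6:96Aa, where the same summit was counted.

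**Figure D4:**
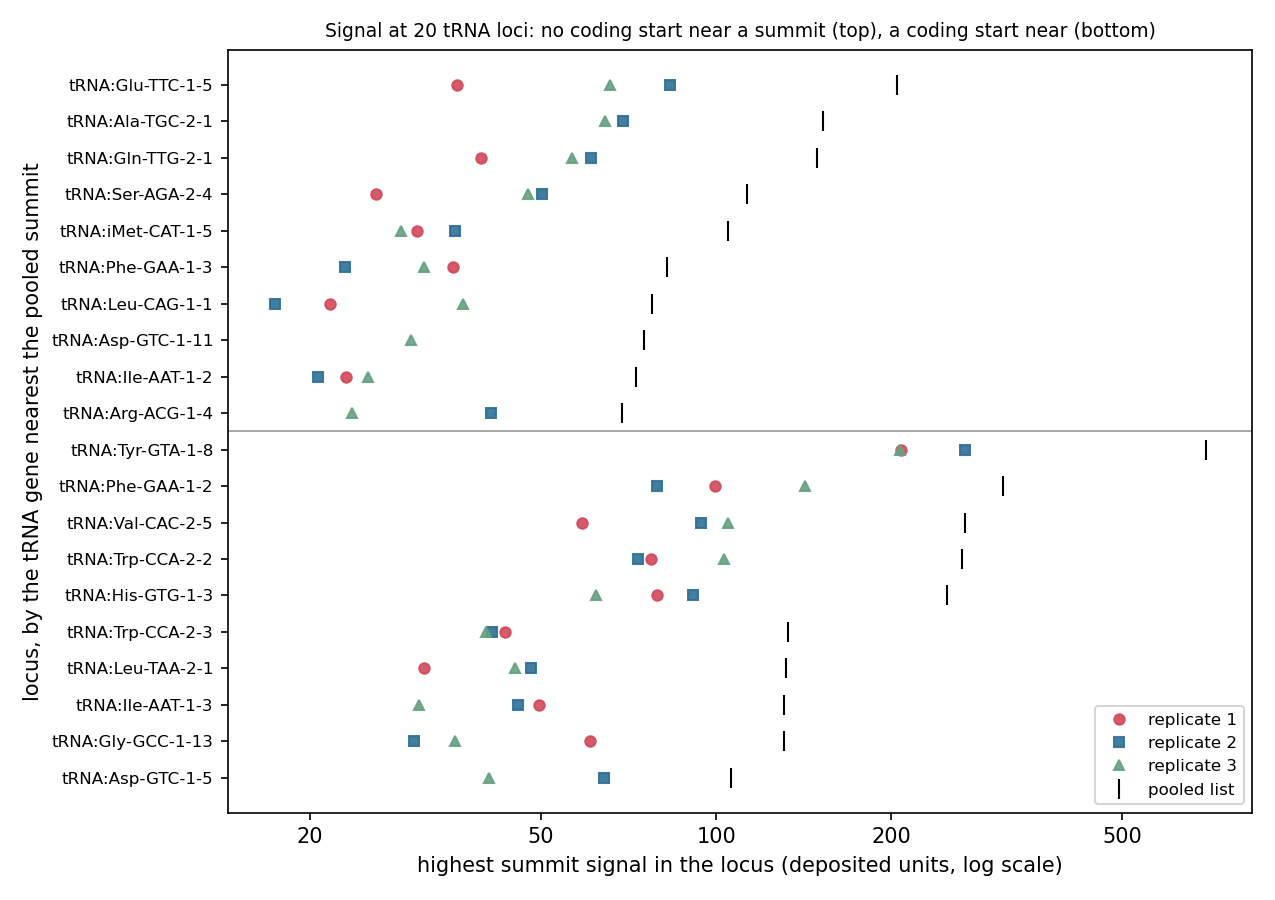
Highest summit signal in the locus (x axis, deposited units on a log scale) at 20 tRNA loci (y axis, each named by the tRNA gene nearest the pooled summit), with 10 loci that have no pooled summit near a coding start above the line and 10 that have one below it; points are replicates and ticks the pooled list. Replicate 1 lies left of the others at the top 4 loci or is missing, and the tRNA:Tyr-GTA-1-8 locus, at 207 to 268, lies right of all others.

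Some thresholded summits lay close to the 500 bp limit. Just inside it, thresholded summits lay 400 bp from tRNA:Val-CAC-2-5, with a signal of 268.2, and 433 bp from tRNA:Trp-CCA-2-3, with 132.8. Just outside it, they lay 562 bp from tRNA:Ile-AAT-1-9, with 144.0, and 570 bp from tRNA:Arg-TCT-1-1, with 107.7.

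tRNA genes close to a coding start had thresholded summits more often than distant ones. Of 33 tRNA genes within 500 bp of a protein-coding start, 9 had one (27.3%), of 92 genes at 501 to 2000 bp, 4 (4.35%), and of 165 genes over 2000 bp away, 3 (1.82%). Over the genome too, coding starts had a thresholded summit more often (17.7%) than the windows (2.92%). Shares by distance were not computed for other regions, so this fall is not shown to be particular to tRNA genes. In replicate 1 the counts in the same classes, nearest first, were 15, 16 and 25 genes, from 45.5% of the nearest to 15.2% of the farthest. In replicate 2 they were 20, 46 and 84, from 60.6% to 50.9%, and in replicate 3 they were 19, 42 and 66, from 57.6% to 40.0%. Genes between other genes (155) and genes in introns of coding genes (127) had a pooled summit at 40.0% and 39.4%.

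Clusters held more summits per kb than single tRNA genes, with the smallest rise in replicate 1. Summits near coding starts were included. Loci of 1 gene had 0.221, 0.433 and 0.363 summits per kb in replicates 1 to 3, loci of 2 to 4 genes had 0.265, 0.625 and 0.539, and the 5 loci of 5 or more genes had 0.275, 0.892 and 0.686. The density over the genome was 0.224 per kb in each replicate. The last class covers 14.6 kb with 4, 13 and 10 summits. Among the clusters of 6 or 7 genes, the cysteine and lysine tRNA cluster of tRNA:Cys-GCA-1-1 to tRNA:Cys-GCA-1-4 on 3L, in an intron of the chitinase gene Cht7, had no summit in replicate 1, and 27.8 and 18.4 in replicates 2 and 3. The arginine and serine cluster from tRNA:Arg-TCG-2-1 to tRNA:Arg-TCG-3-4 on X had 21.7, 21.9 and 14.5, and the asparagine and arginine cluster from tRNA:Asn-GTT-1-10 to tRNA:Arg-ACG-1-10 on 3R had 23.7, 14.6 and 17.7. The 5-gene cluster from tRNA:Arg-ACG-1-2 to tRNA:Lys-CTT-1-2 on 2R had 1 value, 16.7 in replicate 2.

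**Figure D5:**
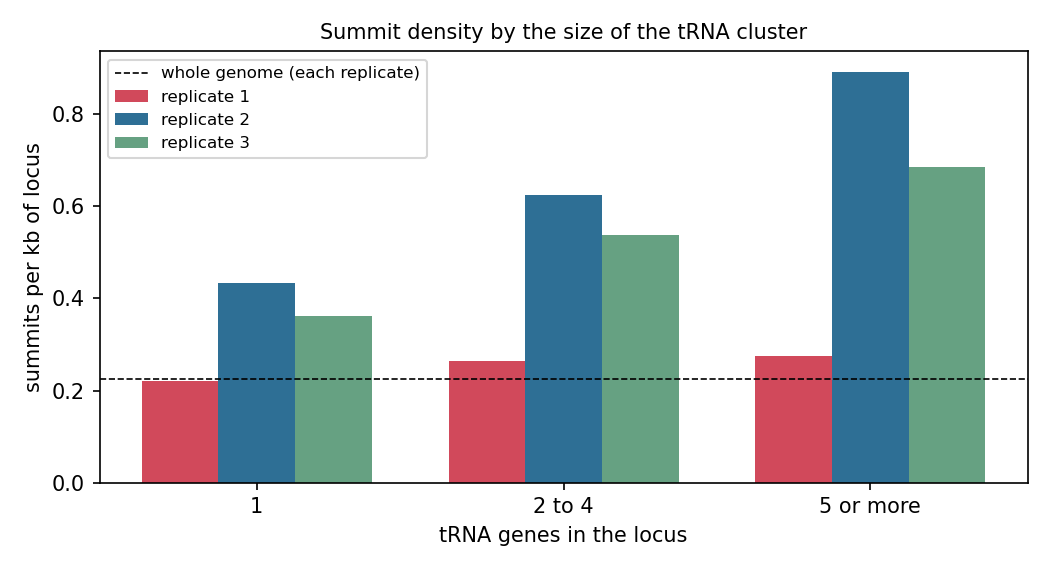
Summits per kb of joined locus (y axis) by the number of tRNA genes in the locus (x axis), for the 3 replicates; the dashed line is the density over the whole genome, 0.224 per kb in each replicate. Replicate 2 goes up to 0.892 per kb and replicate 3 to 0.686 per kb in loci of 5 or more genes, while replicate 1 stays between 0.221 and 0.275 per kb.

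Identical tRNA genes did not share the same outcome. The 290 genes had 95 distinct sequences, and 238 of them had an identical copy elsewhere. Of 24 sequences present in 5 or more copies, 23 had a pooled summit at some copies and not at others, and the remaining one, that of tRNA:Lys-TTT-2-1, had none at its 5 copies. Over the 180 genes of these families 41.1% had a pooled summit. At such a share most sets of 5 or more genes would be mixed, so the mixing says little about the sequences. The sequence of tRNA:Asp-GTC-1-11 has 12 copies, and 0, 6 and 4 of them had a summit in replicates 1 to 3. Among 52 genes with a unique sequence, 17.3%, 48.1% and 44.2% had a summit in replicates 1 to 3, the order seen over all tRNA genes. No source used here says how reads that fit several places were handled.

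The initiator methionine gene family, which starts every protein, had a pooled summit at 4 of 6 genes, and summits at 3, 5 and 4 in replicates 1 to 3. Of the loci not described above, that of tRNA:iMet-CAT-1-1 and tRNA:iMet-CAT-1-2 had none in replicate 1 and 32.5 and 19.2 in replicates 2 and 3. tRNA:iMet-CAT-2-1 had a summit in replicate 1 alone, of 21.8, and tRNA:iMet-CAT-1-3 in replicate 2 alone, of 18.4. The selenocysteine gene tRNA:SeC-TCA-1-1 had 1 weak summit, of 15.6 in replicate 1, rank 26243. Across isotypes the pooled share was highest among those with 5 or more genes for proline (12 of 17 genes), elongator methionine and the initiator (4 of 6 each), and lowest for histidine (1 of 5) and asparagine (2 of 10). In replicate 1, where 19.3% of all tRNA genes had a summit, the shares ran from none for aspartate, cysteine and elongator methionine to 4 of 8 for phenylalanine and 3 of 6 for the initiator. In replicate 2, where 51.7% of all tRNA genes had one, they ran from 5 of 19 for lysine to 5 of 6 for the initiator. Phenylalanine had fewer in replicate 3 (2 of 8) than in replicate 1 (4 of 8), unlike the whole set. Genes of an isotype share loci, so these counts are not independent.

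The letters of the internal promoter were searched in each gene. The exact B box core occurred in 112 of 290 genes (38.6%) on the sense strand, against 0.141% of windows of gene length read on both strands, and 246 genes (84.8%) had it with at most 1 mismatch. An exact A box core occurred in 102 genes (35.2%), against 1.69% of those windows. TTTT occurred within 50 bp after 289 genes (99.7%), against 32.0% of windows of that length. The Su(H) site, searched on both strands as CGTGAGAA, CGTGGGAA, TGTGAGAA or TGTGGGAA, occurred in 24 tRNA gene regions (8.28%), against 10.6% of genome windows and 10.7% of coding starts of the same length. None of the 16 tRNA genes with a thresholded summit had these letters in its region. The DREF element TATCGATA, which overlaps none of them, occurred in 15 regions (5.17%), against 2.97% of genome windows and 12.6% of coding starts, and in 4 of the 16. Genes with the Su(H) letters had a pooled summit at 29.2% and genes without them at 41.0%.

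Other short genes read by RNA polymerase III were described in the same way. Of the 100 genes for 5S ribosomal RNA, 1 had a summit, in replicate 3, where the genome windows gave 20.4%. They were counted gene by gene and not joined into loci. The handling of reads that fit several places is unknown, so this count does not show that these genes lack Su(H)-GFP. Of 10 others, 1 had a thresholded summit and 7 a pooled one, where the genome windows gave 2.92% and 20.4%. The 7SK gene snRNA:7SKa, whose RNA holds the elongation factor P-TEFb in an inactive complex, had a thresholded signal of 240, rank 919, and 63.8, 102 and 78.4 in replicates 1 to 3, with the summit 995 bp from the nearest coding start, while snRNA:7SKb had no summit in any list. The splicing RNA genes snRNA:U6:96Aa, snRNA:U6:96Ab and snRNA:U6:96Ac had no summit in replicate 1. In replicates 2 and 3 they had 17.6 and 29.9 at snRNA:U6:96Aa and a shared summit of 52.7 and 21.1 at the others. The catalytic RNA genes RNaseMRP:RNA and RNaseP:RNA had pooled signals of 53.1 and 36.0. Replicate 1 listed both, with 18.9 at RNaseMRP:RNA, against 30.0 and 24.8 in replicates 2 and 3, and with 18.2 at RNaseP:RNA, against 12.6 and 12.5. Both 7SL genes, which encode the RNA of the signal recognition particle, had none.

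The protein-coding genes that transcribe and process tRNA had summits at their own starts. Of 49 matched genes, 21 (42.9%) had a thresholded summit within 500 bp of a start, against 19.4% of all protein-coding genes, and 38 (77.6%) a pooled one, against 54.4%. The list was chosen with results of these data known, and no test of it was made. Bdp1, a subunit of TFIIIB, had the highest pooled signal, 796, with 306, 245 and 238 in replicates 1 to 3 (263 ± 37.4, SD, n = 3). Brf, another TFIIIB subunit, had 410, with 137, 134 and 136 (136 ± 1.53). The polymerase subunit genes Polr2H and Polr2F, whose products are shared between RNA polymerases, had 462 and 409. Elp5 and Elp6, subunits of the Elongator complex that modifies tRNA wobble bases, had 572 and 372. Polr2F had 114, 161 and 136 in replicates 1 to 3, with replicate 1 the lowest, which it was at neither Bdp1 nor Brf by rank. Maf1, the repressor of RNA polymerase III, and Polr3A, the gene of its largest subunit, had no summit in any list.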

How the data were processed

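The data were deposited peak lists on dm6 from 3 biological replicates of 1 group, so no contrast and no p-value was computed. Per the file lists deposited by the authors, each replicate list was called from 1 library and a control file, the pooled list from all libraries, and the thresholded list by irreproducible discovery rate. Aligner, peak caller and thresholds: not given in the sources used here. A signal value deposited by the authors per peak was used to rank and describe peaks, as was the deposited −log10 q value in checks. Summit positions, in a deposited column of another kind, are the peak start plus the authors' offset in bp. The dm3 lists were not used here.

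Genes were taken from Ensembl release 115 (BDGP 6.54), and sequences from the RefSeq dm6 assembly, by Python 3.11.15, numpy 2.4.6, pandas 2.3.3, scipy 1.17.1 and matplotlib 3.10.9. Counting was tested on simulated summits. Tiled windows of 1073 bp that overlap no tRNA region were the genome comparison. Intervals are Wilson 95% intervals. Named loci were the 10 of highest pooled signal with a pooled summit within 500 bp of a coding start and the 10 without, the 5 with most genes, all initiator and selenocysteine genes, the other RNA polymerase III RNA genes and the 6 machinery genes of highest pooled signal; tRNA:Tyr-GTA-1-8 was added to the sequences, and Maf1, Polr3A and tRNA:Lys-TTT-2-1 to the names, after their values were seen. Members and lists were chosen with earlier results of these data known. Alternatives covered the extension, the distance to starts, peak overlap, list depth and each replicate left out.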

Additional observations from a re-analysis of the deposited data

How the results depend on the processing

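Counts of regions grew with the extension by construction. With no extension, 200, 1000 and 2000 bp, tRNA genes with a thresholded summit numbered 0, 3, 31 and 53 (16 at 500 bp), those away from coding starts 0, 1, 9 and 20 (4 at 500 bp), those with a pooled summit 18, 59, 171 and 214 (116 at 500 bp) and those with a summit in all 3 replicates 1, 8, 88 and 161 (38 at 500 bp). Joining with 200 bp left 3 loci with a thresholded summit, and with 1000 bp 18, against 14. The 1000 strongest thresholded peaks left 6 genes, and 0 away from coding starts. A start distance of 200 bp left 7 away from coding starts, and counting starts of all genes but tRNA genes left 2. The stronger 15000 pooled peaks left 66 genes. With 1 replicate left out, genes with a summit in both others ranged from 42 to 99, the highest without replicate 1, and the median signal at loci from 22.5 to 26.1. Thresholded summits inside a tRNA gene were 0, and 1 with the gene extended by 100 bp. Exact B box cores were 112, and 246 with 1 mismatch. No paired analysis was possible because all replicates belong to 1 group.

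The order of the replicates was checked with settings chosen after seeing the data. Over the stronger 15000 peaks of each list, tRNA gene regions held a summit 1.17, 3.14 and 2.58 times as often as genome windows in replicates 1 to 3, and over as many of the strongest peaks as the thresholded list holds, 1.18, 2.12 and 1.65 times as often. Replicate 1 stayed the lowest in both. The ratios over the strongest peaks rest on 10, 18 and 14 tRNA genes in replicates 1 to 3. Only 1, 5 and 4 of the summits there lay away from coding starts, too few to order the replicates. The lists give no read depth, so a region without a summit is not shown to be unbound.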
